A study of Mus musculus with 14 samples.

Results

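The 7 transcripts described here belong to the arginine and nitric oxide pathway of macrophages: Nos2, Slc7a2, Ass1, Asl, Gch1, Arg1 and Arg2. They were taken by gene name from a deposited table of 39721 entries. Each of the 7 had an entry of its own, and 7 of 7 were among the 11977 named entries that reached at least 1 FPKM in at least 2 libraries and were tested. FPKM is a count of sequenced fragments scaled by transcript length and library size. Arg1 passed that filter only through 3 libraries taken 6 h after the second stimulus from cells that had first received PBS, so it had to differ between groups to be tested at all.

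Macrophages make nitric oxide from arginine with the inducible nitric oxide synthase that Nos2 encodes, an enzyme that also releases citrulline. Arginine enters the cell through cationic amino acid transporters such as CAT2, the product of Slc7a2. Citrulline can be turned back into arginine by argininosuccinate synthase (Ass1) followed by argininosuccinate lyase (Asl). The synthase needs tetrahydrobiopterin, whose synthesis begins with GTP cyclohydrolase 1 (Gch1). The arginases Arg1, in the cytosol, and Arg2, in mitochondria, compete for the same arginine and split it into ornithine and urea.

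The cells were macrophages grown in culture from bone marrow of male C57Bl6/J mice aged 6 to 12 weeks, with medium from L929 cells as the source of CSF-1. They received PBS or Poly I:C, a synthetic double-stranded RNA sensed by TLR3, at 100 ng/mL for 24 h. After a wash they received PBS or LPS, the bacterial lipopolysaccharide sensed by TLR4, for 2 h or 6 h. The dose of LPS as the second stimulus is not given in the sources used here. The groups are named below by their first and then their second stimulus. PBS then LPS, Poly I:C then PBS and Poly I:C then LPS had 2 libraries at each time, and PBS then PBS had 1 library at each time. That makes 14 libraries in 8 groups. All cells were wild type and all had the 24 h first culture step and the wash. Nothing states that replicate libraries came from separate animals or cultures. The p-values therefore measure the spread between these libraries only, and that spread may be technical.

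Absolute depth is unknown, because the table holds no counts. The relative value of 1 fragment was estimated from the most common ratio of low values between pairs of libraries. It spanned 3.08-fold across libraries. Replicates correlated at r = 0.974 to 0.988 across tested entries, computed over genes, and genes are no independent replicates. The pair that differed most was PBS then LPS at 2 h. The 8 macrophage markers with an entry (among them Csf1r, Cd68, Itgam and Lyz2) were each at 1 FPKM or more in every library. Their summed level was 13857 to 20640 FPKM in the PBS-first libraries and 5361 to 8660 FPKM in the Poly I:C-first libraries. The marker with the highest level was Lyz2, with group means of 11279 to 14798 FPKM against 2524 to 4241 FPKM. The markers did not all go that way: at 2 h, with LPS, the group means for PBS first and Poly I:C first were 1560 and 2137 FPKM for Cd68, and 37.1 and 563 FPKM for Fcgr1. Of the 4 T cell markers, Cd3e, Cd3g and Cd8a were listed at 0 in every library and Cd4 was at 1.95 to 7.31 FPKM. Of the 7 neutrophil and precursor markers, S100a9 and Elane were at 0 in every library and S100a8 reached 7.01 FPKM. Their sum was 7.20 and 8.33 FPKM after Poly I:C then LPS at 6 h, and 0.257 to 2.15 FPKM in the other libraries. The 4 dendritic markers summed to 0.143 to 10.2 FPKM, with Xcr1 at group means of 0.0335 to 8.43 FPKM. The B cell markers summed to at most 0.788 FPKM and the erythroid marker to at most 0.301 FPKM. The 6 stromal markers summed to 14.4 to 105 FPKM and the 3 endothelial markers, mostly Kdr, to 1.77 to 48.5 FPKM. The lowest value of each sum was in a PBS-first library. The stromal sums of the first stimuli overlapped, however. At 6 h they were 22.7 to 59.5 FPKM after PBS then LPS and 22.1 to 39.2 FPKM after Poly I:C then PBS. The part of these marker levels in the results was not tested. In such bulk samples fewer cells of a type and less RNA per cell cannot be told apart.

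Coordinates are those of the deposited entries, which match build GRCm38. Nos2 (ENSMUSG00000020826) lies on the plus strand of chromosome 11 from 78920787 to 78960317, and Slc7a2 (ENSMUSG00000031596) on the plus strand of chromosome 8 from 40852824 to 40922308. Ass1 (ENSMUSG00000076441) spans 31470207 to 31520696 on the plus strand of chromosome 2, and Asl (ENSMUSG00000025533) spans 130011258 to 130025132 on the minus strand of chromosome 5. Gch1 (ENSMUSG00000037580) spans 47153895 to 47189413 on the minus strand of chromosome 14. Arg1 (ENSMUSG00000019987) spans 24915208 to 24927761 on the minus strand of chromosome 10. The entry of Arg2 (ENSMUSG00000021125) spans 79130777 to 79172689 on the plus strand of chromosome 12, beyond the annotated gene end at 79156301, and also covers Vti1b on the minus strand. Whether the counting used strand is not given in the sources used here.

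Promoter sequences from RefSeq, build GRCm38.p6, were at hand for 2 of the 7 genes, Ass1 and Gch1. Both transcripts were higher 6 h after LPS alone, as were Nos2, Slc7a2 and Arg1. Only the 2 sequences at hand are shown. Each is the 250 bases before the annotated start site, 5′ to 3′ on the gene's own strand, with matches to the motifs searched in capitals. Ass1 is chr2:31470020-31470269 on the plus strand, whose last bases overlap the start of the deposited Ass1 entry, and Gch1 is chr14:47189414-47189663 on the minus strand.
Ass1: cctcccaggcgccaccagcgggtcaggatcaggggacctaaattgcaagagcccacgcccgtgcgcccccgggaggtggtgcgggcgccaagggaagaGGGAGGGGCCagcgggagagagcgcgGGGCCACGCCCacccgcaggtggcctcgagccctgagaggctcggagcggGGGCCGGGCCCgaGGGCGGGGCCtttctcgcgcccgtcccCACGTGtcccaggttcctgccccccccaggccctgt
Gch1: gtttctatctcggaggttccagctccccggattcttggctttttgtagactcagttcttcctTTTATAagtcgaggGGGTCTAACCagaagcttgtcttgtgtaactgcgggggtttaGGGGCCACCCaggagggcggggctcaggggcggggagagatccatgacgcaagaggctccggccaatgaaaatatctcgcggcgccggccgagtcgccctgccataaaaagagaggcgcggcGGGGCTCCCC
A loose NF-kB-like pattern, GGG and CC with any 5 bases between them, was found in both windows, and 45.8% of the 32851 promoters of that length held it on either strand. In Ass1 it occurred 4 times on the printed strand and 2 of these overlapped a match on the opposite strand. In Gch1 it occurred 3 times on the printed strand, 2 of them also reading as a match on the opposite strand. Ass1 held ACGTG, a hypoxia-like pattern, once on each strand in the overlapping letters CACGTG (16.6% of all promoters). Gch1 held TATAAA only on the strand opposite to the printed one (12.4%), where the printed letters are TTTATA. An interferon-response-like pattern (GAAA, any 2 bases, GAAA), TTCNNNGAA (interferon-gamma-site-like), the same with any 4 bases in the middle (STAT6-like) and the octamer ATGCAAAT were not found in either window and were present in 2.98%, 7.02%, 5.85% and 1.60% of all promoters.

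**Figure D1:**
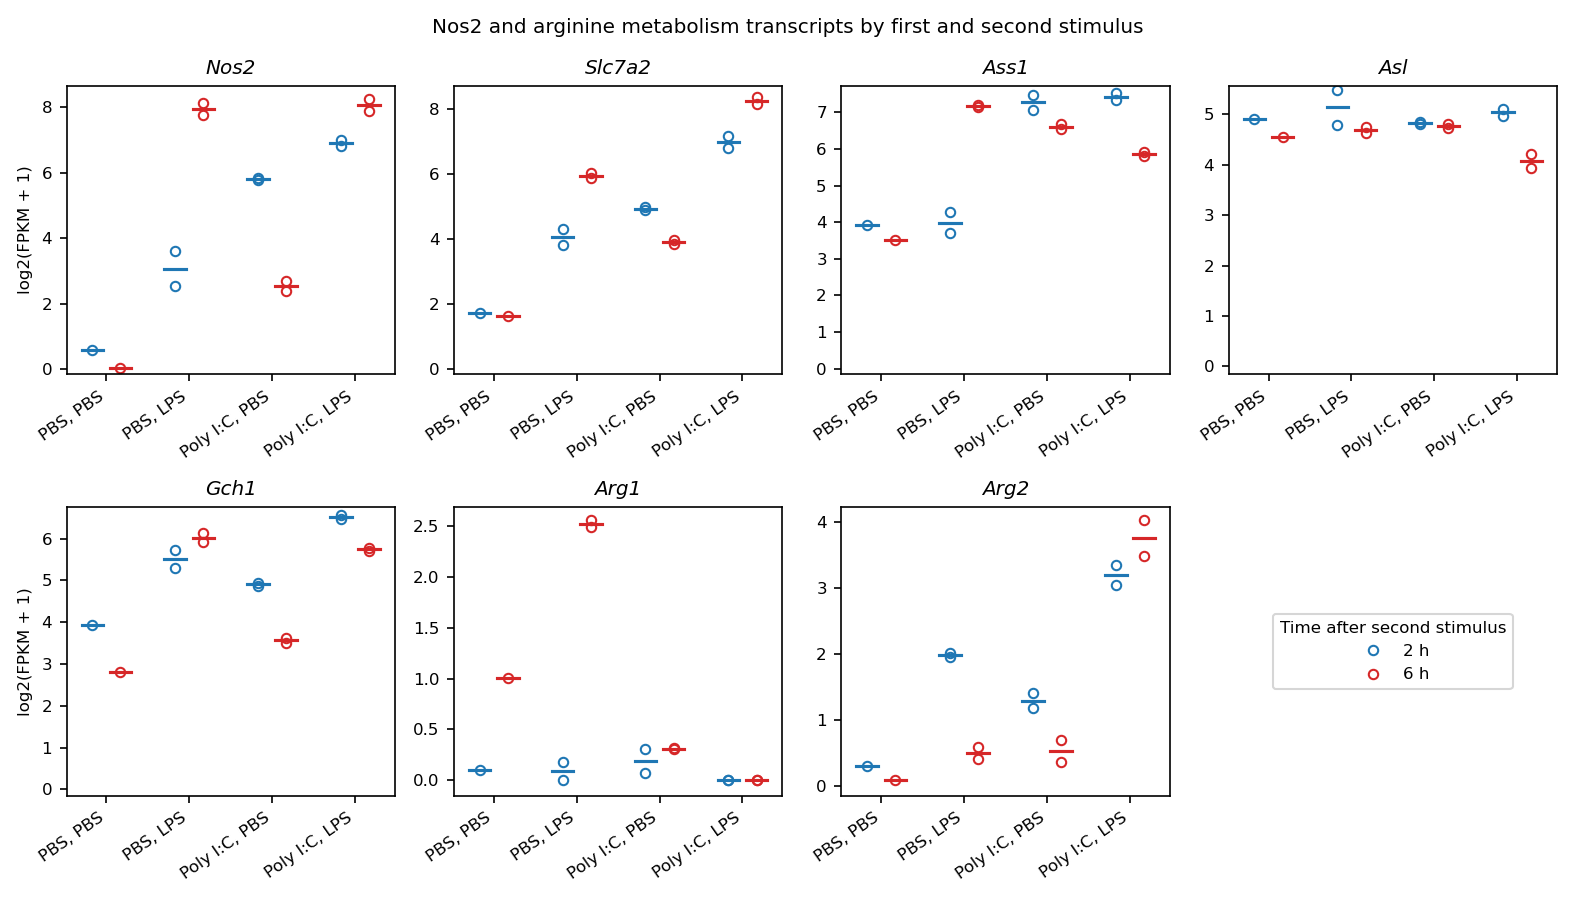
Levels of the 7 transcripts as log2(FPKM + 1) on the vertical axis, by first and second stimulus on the horizontal axis, at 2 h (blue) and 6 h (red). Circles are libraries and lines are group means. Nos2, Slc7a2 and Gch1 were lowest in the PBS then PBS library of 6 h, and Arg1 exceeded 2 FPKM only in the PBS then LPS libraries of 6 h.

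Nos2 had the widest range of the 7 transcripts. It stood at 0.497 FPKM in the PBS then PBS library of 2 h and 0.0178 FPKM in that of 6 h. After PBS then LPS it was 11.1 and 4.76 FPKM at 2 h, and 213 and 279 FPKM at 6 h. Both times lay above their PBS then PBS library, and the 6 h pair far above the 2 h pair. After Poly I:C then PBS it was 56.4 and 53.4 FPKM at 2 h but 5.46 and 4.23 FPKM at 6 h. After Poly I:C then LPS it was 111 and 126 FPKM at 2 h and 299 and 234 FPKM at 6 h. The 2 highest groups, Poly I:C then LPS and PBS then LPS at 6 h, overlapped, and so did PBS then LPS at 2 h with Poly I:C then PBS at 6 h. The other neighbouring groups in this order lay apart.

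Changes are given as differences of mean log2(FPKM + 1) ± SE, which understate changes of weak transcripts, with adjusted p-values from limma fitted to all 14 libraries. A transcript was called at an adjusted p under 0.05. The lone PBS then PBS library of each time is assumed to vary like the other groups, and comparisons that use the same group are not independent of each other. LPS alone raised Nos2 by 2.48 ± 0.36 at 2 h (adjusted p = 0.00104) and 7.91 ± 0.36 at 6 h (adjusted p = 8.93e-08). Nos2 was also higher by 5.22 ± 0.36 after Poly I:C without LPS at 2 h (adjusted p = 1.69e-06). By 6 h that difference was 2.51 ± 0.36 (adjusted p = 4.39e-04). In the Poly I:C then PBS cells Nos2 fell by 3.26 from 2 h to 6 h (SE 0.29, adjusted p = 6.75e-05).

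LPS given after Poly I:C raised Nos2 by 1.10 ± 0.29 at 2 h (adjusted p = 0.0224) and 5.51 ± 0.29 at 6 h (adjusted p = 2.94e-07). The 2 h value lost its call without the filter on low values (adjusted p = 0.0744), with the libraries of 2 h alone (adjusted p = 0.0783), and when either Poly I:C then PBS library (1.14 and 1.06) or either Poly I:C then LPS library (1.19 and 1.00) of that time was left out. The LPS response after Poly I:C minus the response after PBS, called the interaction below, was -1.38 ± 0.46 at 2 h (adjusted p = 0.162, 95% interval -2.42 to -0.35) and -2.40 ± 0.46 at 6 h (adjusted p = 0.00352). The 2 h interaction was called with a pseudocount of 0.1 (-2.52), with the PBS then PBS libraries of both times joined as 1 control (-1.66), and without PBS then LPS replicate 2 (-1.92). Poly I:C before LPS against PBS before LPS gave 3.84 ± 0.29 at 2 h (adjusted p = 2.03e-06). At 6 h this difference was 0.12 ± 0.29 (adjusted p = 0.773), with an interval of -0.54 to 0.77. It turned to -0.076 without PBS then LPS replicate 1 and to -0.060 without Poly I:C then LPS replicate 1. The fall in this difference from 2 h to 6 h was -3.72 ± 0.42 (adjusted p = 6.55e-05). Nos2 went on rising between the times in both LPS groups, by 4.88 ± 0.29 after PBS first (adjusted p = 6.45e-07) and by 1.15 ± 0.29 after Poly I:C first (adjusted p = 0.0107). The latter was not called without replicate 1 of the 2 h pair (1.06) or of the 6 h pair (0.98).

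Slc7a2, the arginine importer, was highest after Poly I:C then LPS at both times. Its level was 2.34 FPKM in the PBS then PBS library of 2 h and 2.09 FPKM in that of 6 h. PBS then LPS gave 13.1 and 18.8 FPKM at 2 h and 57.3 and 64.7 FPKM at 6 h. All 4 of these lay above both PBS then PBS libraries. Poly I:C then PBS gave 30.5 and 28.7 FPKM at 2 h and 14.8 and 13.5 FPKM at 6 h. Poly I:C then LPS gave 110.2 and 145 FPKM at 2 h and 330.5 and 283 FPKM at 6 h, the highest value of any of the 7 transcripts. Neighbouring groups in the order of levels lay apart except PBS then LPS at 2 h and Poly I:C then PBS at 6 h.

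Poly I:C before LPS raised Slc7a2 by 2.93 ± 0.18 at 2 h (adjusted p = 4.38e-07) and still by 2.31 ± 0.18 at 6 h (adjusted p = 5.13e-06), and the change between the times was -0.62 ± 0.26 (adjusted p = 0.0727). Leaving out PBS then LPS replicate 2 (-0.87) or Poly I:C then LPS replicate 1 (-0.82) of 2 h brought that change past the threshold. LPS alone raised it by 2.32 ± 0.22 at 2 h and 4.33 ± 0.22 at 6 h, and LPS after Poly I:C by 2.06 ± 0.18 and 4.35 ± 0.18. The interactions were -0.26 ± 0.29 (adjusted p = 0.721, interval -0.90 to 0.37) at 2 h and 0.02 ± 0.29 (adjusted p = 0.969, interval -0.62 to 0.66) at 6 h. Poly I:C without LPS gave 3.20 ± 0.22 at 2 h and 2.29 ± 0.22 at 6 h. The Slc7a2 locus also holds the processed pseudogene Gm5345 on the opposite strand. Gm5345 ranged from 0.923 FPKM in the lowest library to 37.0 FPKM in the highest, with group means after Poly I:C then LPS of 34.6 FPKM at 2 h and 33.1 FPKM at 6 h, and fragments of the overlapping entries may have been split between them.

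Ass1, the first enzyme of arginine recycling, followed the first stimulus at 2 h. It stood at 14.3 FPKM after PBS then PBS and at 18.4 and 12.0 FPKM after PBS then LPS, which overlap. In Poly I:C-first cells it stood at 134 and 175 FPKM without LPS and at 159.7 and 182 FPKM with LPS, all 4 above every PBS-first library of that time. The earlier Poly I:C gave 3.44 ± 0.19 before LPS (adjusted p = 1.91e-07) and 3.34 ± 0.23 without LPS (adjusted p = 1.68e-06). LPS gave 0.05 ± 0.23 after PBS (adjusted p = 0.913, interval -0.46 to 0.57) and 0.15 ± 0.19 after Poly I:C (adjusted p = 0.605, interval -0.26 to 0.57).

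At 6 h the order of the LPS groups was the other way round. Ass1 stood at 10.4 FPKM after PBS then PBS, 140.4 and 146 FPKM after PBS then LPS, 92.4 and 101 FPKM after Poly I:C then PBS, and 55.3 and 59.4 FPKM after Poly I:C then LPS. These groups did not overlap. LPS alone raised Ass1 by 3.66 ± 0.23 (adjusted p = 8.19e-07), and Poly I:C without LPS by 3.10 ± 0.23 (adjusted p = 4.65e-06). Poly I:C before LPS now lowered it, with a change of -1.31 ± 0.19 (adjusted p = 2.63e-04). The interaction was -4.40 ± 0.30 (adjusted p = 5.59e-06), the largest in size among the 7 transcripts on the log2(FPKM + 1) scale. That scale understates the interaction of Nos2, which was at 0.0178 FPKM in the PBS then PBS library of 6 h. The change of the Poly I:C difference in Ass1 between the times was -4.74 ± 0.26 (adjusted p = 7.87e-07). LPS after Poly I:C gave -0.74 ± 0.19 (adjusted p = 0.00883), a call lost without Poly I:C then PBS replicate 2 (-0.68) or Poly I:C then LPS replicate 1 (-0.69) of 6 h. From 2 h to 6 h Ass1 rose by 3.19 ± 0.19 after PBS then LPS and fell by 1.56 after Poly I:C then LPS (SE 0.19, adjusted p = 1.62e-04). Poly I:C then PBS gave -0.66 ± 0.19 (adjusted p = 0.0235). That call was lost without the filter and without Poly I:C then PBS replicate 2 of 2 h (-0.47), replicate 1 of 6 h (-0.60) or replicate 2 of 6 h (-0.72).

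Asl, which completes the recycling step, had the narrowest range on the log2(FPKM + 1) scale. It ran from 14.2 to 43.7 FPKM over the 14 libraries, with a median of 26.8 FPKM. It was at 29.1 FPKM after PBS then PBS, 43.7 and 26.7 FPKM after PBS then LPS, 26.9 and 27.7 FPKM after Poly I:C then PBS, and 33.5 and 30.3 FPKM after Poly I:C then LPS at 2 h. At 6 h it was at 22.3 FPKM, at 26.0 and 23.7 FPKM, at 27.1 and 25.6 FPKM, and at 14.2 and 17.6 FPKM in the same order of groups. The 2 Poly I:C then LPS libraries of 6 h were the lowest of all 14. No comparison at 2 h passed the threshold with all libraries (adjusted p = 0.478 to 0.994), and the PBS then LPS pair of that time was the widest. Without its replicate 2, Poly I:C before LPS (-0.44) and LPS alone (0.57) were called.

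At 6 h Poly I:C before LPS and LPS after Poly I:C both lowered Asl, with -0.62 ± 0.20 (adjusted p = 0.0242) and -0.70 ± 0.20 (adjusted p = 0.0148). The former was lost without the filter, without either PBS then LPS library of 6 h (-0.56 and -0.68) and without Poly I:C then LPS replicate 1 (-0.48). The latter was lost without either Poly I:C then PBS library (-0.67 and -0.74) and without Poly I:C then LPS replicate 1 (-0.56). The interaction of -0.85 ± 0.31 (adjusted p = 0.0645) passed with the 6 h libraries alone (adjusted p = 0.0221) and without either PBS then LPS library of 2 h (-0.85 each). From 2 h to 6 h Asl fell by 0.97 after Poly I:C then LPS (SE 0.20, adjusted p = 0.00341), against -0.45 ± 0.20 after PBS then LPS (adjusted p = 0.0848). The latter was called without PBS then LPS replicate 2 of 2 h (-0.79). The difference between these changes was -0.52 ± 0.28 (adjusted p = 0.155) and passed without PBS then LPS replicate 1 of 2 h (-0.87).

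Gch1, the entry to cofactor synthesis, was present in every library. At 2 h it stood at 14.4 FPKM after PBS then PBS, 52.2 and 38.6 FPKM after PBS then LPS, 29.7 and 28.4 FPKM after Poly I:C then PBS, and 87.4 and 93.2 FPKM after Poly I:C then LPS. These groups did not overlap. At 6 h it stood at 5.96 FPKM, at 59.2 and 69.1 FPKM, at 11.4 and 10.3 FPKM, and at 53.6 and 51.6 FPKM in the same order. The Poly I:C then LPS pair was then below the PBS then LPS pair.

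At 2 h LPS raised Gch1 by 1.58 ± 0.18 after PBS (adjusted p = 1.95e-04) and 1.60 ± 0.15 after Poly I:C (adjusted p = 3.53e-05), with an interaction of 0.03 ± 0.23 (adjusted p = 0.972, interval -0.49 to 0.54). The Poly I:C difference was 0.99 ± 0.15 before LPS (adjusted p = 1.97e-04) and 0.97 ± 0.18 without LPS (adjusted p = 0.00141). At 6 h LPS alone gave 3.22 ± 0.18 (adjusted p = 3.38e-07) and LPS after Poly I:C 2.18 ± 0.15 (adjusted p = 1.28e-06). The interaction of -1.04 ± 0.23 (adjusted p = 0.00719) was lost with the PBS then PBS libraries of both times joined as 1 control (-0.47). The same setting ended the call of Poly I:C without LPS at 6 h, from 0.76 ± 0.18 (adjusted p = 0.00814) to 0.19. The Poly I:C difference before LPS was -0.28 ± 0.15 at 6 h (adjusted p = 0.14) and was called when either PBS then LPS library of 2 h was left out. The Poly I:C difference fell by 1.27 between the times (SE 0.21, adjusted p = 7.24e-04). Within groups, Gch1 changed from 2 h to 6 h by 0.50 ± 0.15 after PBS then LPS (adjusted p = 0.016), by -0.77 ± 0.15 after Poly I:C then LPS (adjusted p = 0.00231) and by -1.35 ± 0.15 after Poly I:C then PBS (adjusted p = 1.78e-04). The first of these was lost without PBS then LPS replicate 2 of 2 h (0.29) or replicate 2 of 6 h (0.39).

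Arg1, the cytosolic arginase, was weak throughout. At 2 h it was at 0.0760 FPKM after PBS then PBS, 0 and 0.131 FPKM after PBS then LPS, 0.0494 and 0.234 FPKM after Poly I:C then PBS, and 0 in both Poly I:C then LPS libraries. At 6 h it was at 1.01 FPKM after PBS then PBS, 4.87 and 4.62 FPKM after PBS then LPS, 0.238 and 0.246 FPKM after Poly I:C then PBS, and again 0 in both Poly I:C then LPS libraries. The PBS then LPS libraries of 6 h were thus the highest, and all 4 Poly I:C then LPS libraries were listed at 0, where no fold is given. LPS alone raised Arg1 by 1.51 ± 0.18 at 6 h (adjusted p = 6.85e-05). The difference in log2(FPKM + 1) between Poly I:C then LPS and PBS then LPS at 6 h was -2.52 ± 0.14 (adjusted p = 7.39e-07), and the interaction was -1.83 ± 0.23 (adjusted p = 2.54e-04). Poly I:C without LPS gave -0.70 ± 0.18 at 6 h (adjusted p = 0.0124), which was not called with a pseudocount of 0.1 (-1.70, adjusted p = 0.0897) or with the PBS then PBS libraries of both times joined as 1 control (-0.24). LPS after Poly I:C gave -0.31 ± 0.14 at 6 h (adjusted p = 0.106) and was called with that pseudocount and without the filter. After PBS then LPS, Arg1 rose by 2.43 ± 0.14 from 2 h to 6 h (adjusted p = 5.73e-07). At 2 h no comparison passed the threshold (adjusted p = 0.397 to 0.971).

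Arg2, the mitochondrial arginase, showed the opposite order of the LPS groups at 6 h. At 2 h it was at 0.236 FPKM after PBS then PBS, 3.02 and 2.86 FPKM after PBS then LPS, 1.64 and 1.26 FPKM after Poly I:C then PBS, and 7.27 and 9.15 FPKM after Poly I:C then LPS. At 6 h it was at 0.0566 FPKM, at 0.318 and 0.505 FPKM, at 0.287 and 0.609 FPKM, and at 15.3 and 10.2 FPKM in the same order. The 4 Poly I:C then LPS libraries were the highest of all 14. Vti1b, whose gene shares the Arg2 entry's locus, ranged from 44.4 to 79.3 FPKM, with its lowest group mean in PBS then PBS at 6 h (44.4 FPKM) and its highest in PBS then LPS at 2 h (68.0 FPKM).

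At 2 h LPS raised Arg2 by 1.67 ± 0.26 after PBS (adjusted p = 0.0015) and by 1.91 ± 0.21 after Poly I:C (adjusted p = 1.21e-04), with an interaction of 0.24 ± 0.33 (adjusted p = 0.797, interval -0.50 to 0.97). Poly I:C before LPS gave 1.22 ± 0.21 (adjusted p = 5.78e-04). At 6 h that difference was 3.26 ± 0.21 (adjusted p = 1.47e-06), an increase of 2.04 ± 0.30 over 2 h (adjusted p = 3.62e-04). LPS gave 0.41 ± 0.26 after PBS (adjusted p = 0.228, interval -0.16 to 0.99) and 3.23 ± 0.21 after Poly I:C (adjusted p = 1.08e-06), and their difference was 2.82 ± 0.33 (adjusted p = 1.71e-04). With a pseudocount of 0.1, LPS alone (1.68) and Poly I:C alone (1.74, against 0.45 ± 0.26 and adjusted p = 0.212) were called at 6 h. Poly I:C alone at 2 h gave 0.98 ± 0.26 (adjusted p = 0.0101) and was lost without Poly I:C then PBS replicate 1 (0.87). Arg2 fell by 1.48 from 2 h to 6 h after PBS then LPS (SE 0.21, adjusted p = 2.30e-04). After Poly I:C then LPS it changed by 0.56 ± 0.21 (adjusted p = 0.0562), which was called with median-of-ratios scaling (0.59), without the intensity trend (0.56) and without Poly I:C then LPS replicate 2 of 6 h (0.83). After Poly I:C then PBS it changed by -0.76 ± 0.21 (adjusted p = 0.0206). That call was lost without the filter and without Poly I:C then PBS replicate 1 (-0.65) or 2 (-0.87) of 2 h or replicate 1 of 6 h (-0.60).

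**Figure D2:**
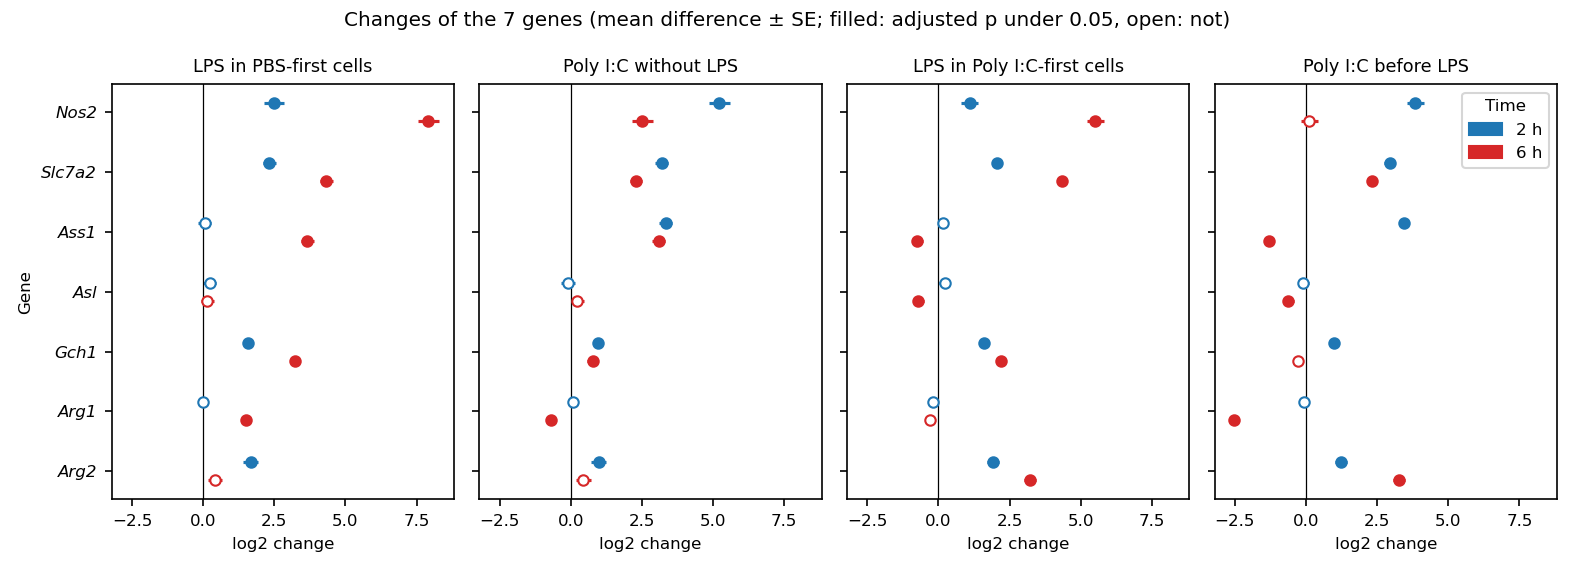
Differences in mean log2(FPKM + 1) on the horizontal axis for each of the 7 genes on the vertical axis, in 4 comparisons, at 2 h (blue) and 6 h (red). Bars are standard errors, and filled circles passed an adjusted p under 0.05. Poly I:C before LPS gave 3.44 for Ass1 at 2 h and -1.31 at 6 h, and 1.22 for Arg2 at 2 h and 3.26 at 6 h.

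Read together, Poly I:C before LPS was called higher for 5 of the 7 transcripts at 2 h and lower for 0, against 32.6% of tested entries called higher and 28.5% lower. The calls at 6 h were higher for Slc7a2 and Arg2 and lower for Ass1, Asl and Arg1, against 23.7% and 25.9%. LPS alone was called higher for Nos2, Slc7a2, Gch1 and Arg2 at 2 h (9.47% of entries higher, 6.39% lower), and for Nos2, Slc7a2, Ass1, Gch1 and Arg1 at 6 h (22.9% and 20.6%), with 0 lower at either time. LPS after Poly I:C was called higher for Nos2, Slc7a2, Gch1 and Arg2 at both times (14% of entries at 2 h and 21.7% at 6 h) and lower for 0 at 2 h (8.72%) and for Ass1 and Asl at 6 h (22.2%). Poly I:C without LPS was called higher for 5 and lower for 0 at 2 h (24.9% and 22.4%), and higher for 4 at 6 h (18.4%), where Arg1 was lower (16.1%). With the PBS then PBS libraries of both times joined, the 6 h count fell from 5 to 3. The interaction at 2 h was called by limma for 0 of 7, with 1, Nos2, at an unadjusted p under 0.05, against 4.29% of entries called. The count was 1 with a pseudocount of 0.1, with the joined control and without PBS then LPS replicate 2. At 6 h it was called for 5, Arg2 higher (12.7%) and Nos2, Ass1, Gch1 and Arg1 lower (16.7%). The filter admitted Arg1 only through PBS-first libraries of 6 h. Its calls here and below in comparisons that use those libraries are therefore no independent result.

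From 2 h to 6 h, PBS then LPS was called higher for 5 transcripts and lower for Arg2, against 23.4% and 26% of entries. Poly I:C then LPS was called higher for Nos2 and Slc7a2 and lower for Ass1, Asl and Gch1 (14.7% and 25.3%), and the median of all tested entries in that comparison was -0.10. Poly I:C then PBS was called higher for 0 and lower for 5 (12.3% and 18%). That count was 3 without the filter, without replicate 2 of its 2 h pair and without replicate 1 of its 6 h pair. The change in the effect of Poly I:C before LPS was called higher for Arg2 and lower for Nos2, Ass1, Gch1 and Arg1 (19.1% and 25.3%).

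On the FPKM scale, which is per length, the most abundant of the 7 transcripts differed by group. Asl was highest in both PBS then PBS libraries and Gch1 in both PBS then LPS libraries of 2 h. Ass1 led in 6 libraries, those of Poly I:C then PBS at both times and of Poly I:C then LPS at 2 h. Nos2 led in both PBS then LPS libraries of 6 h, and Slc7a2 in both Poly I:C then LPS libraries of 6 h.

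The other genes of the pathway were taken from 6 lists, of which 48 genes could be tested. For Poly I:C before LPS, 16 of the 48 were higher and 24 lower at 2 h (33.3% and 50%, against 32.6% and 28.5% of all tested entries), and 13 were higher and 22 lower at 6 h (27.1% and 45.8%, against 23.7% and 25.9%). The shares higher were near those of all entries. For LPS alone, 13 were higher and 1 lower at 2 h (27.1% and 2.08%, against 9.47% and 6.39%), and 17 were higher and 15 lower at 6 h (35.4% and 31.2%, against 22.9% and 20.6%). The count for LPS alone at 2 h rose without PBS then LPS replicate 2 of that time, and so did the count over all tested entries. Among 7 further genes of nitric oxide and tetrahydrobiopterin handling, Poly I:C before LPS gave 1 higher and 5 lower at 2 h, against 32.6% and 28.5% of all entries, with a list median of -1.75. The median of all tested entries in this comparison was 0.05 at 2 h and -0.00019 at 6 h. Nosip, which binds nitric oxide synthase, was higher by 1.06 ± 0.16. Ddah2, which breaks down inhibitors of nitric oxide synthase, gave -2.72 ± 0.27, and Qdpr, which regenerates tetrahydrobiopterin, -2.10 ± 0.23. At 6 h the counts were 1 higher and 5 lower, against 23.7% and 25.9%, with Ddah2 at -1.85 ± 0.27 and Qdpr at -1.28 ± 0.23. The other nitric oxide synthase genes, Nos1 and Nos3, stayed under the filter, with the highest group means at 0.371 and 0.0986 FPKM.

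Of 5 tested arginine transport genes, Poly I:C before LPS gave 3 higher and 1 lower at 2 h (median 0.81), and 3 were higher and 2 lower at 6 h (median 0.74). All entries gave 32.6% higher and 28.5% lower at 2 h, and 23.7% and 25.9% at 6 h. Slc3a2, the heavy chain shared by several amino acid transporters, was at 169 and 125 FPKM in the PBS then LPS libraries of 2 h, against 1018 and 1055 FPKM where Poly I:C had come before LPS. Its change was 2.83 ± 0.14 (adjusted p = 1.09e-07) at 2 h and 1.31 ± 0.14 at 6 h. Slc7a1, the constitutive cationic transporter CAT1, was higher by 1.73 ± 0.25 with Poly I:C before LPS than with PBS before LPS at 6 h. The change with LPS alone at that time was -1.26 ± 0.30. Slc7a7, a partner of Slc3a2 in cationic amino acid export, went the other way, with 1.90 ± 0.17 for LPS alone and -1.30 ± 0.14 for Poly I:C before LPS at 6 h.

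Downstream of ornithine, 2 of 7 listed urea cycle and ornithine genes could be tested, Slc25a15, the mitochondrial ornithine carrier, and Oat, ornithine aminotransferase. Both were lower with Poly I:C before LPS at 2 h, at -0.91 ± 0.15 and -1.13 ± 0.12. At 6 h only Oat was called (-0.38 ± 0.12, adjusted p = 0.0238), and that call was lost without either PBS then LPS library (-0.34 and -0.42) or either Poly I:C then LPS library (-0.32 and -0.44) of that time. Cps1 and Agmat were listed at 0 in every library, and Otc was at most 0.0302 FPKM. Of 13 polyamine genes, the earlier Poly I:C gave 2 higher and 9 lower before LPS at 2 h (median -0.64, against 32.6% and 28.5% of all entries called), and 1 was higher and 7 lower at 6 h (median -0.71, against 23.7% and 25.9%). Srm, spermidine synthase, was at 33.3 and 24.6 FPKM in the PBS then LPS libraries of 2 h, against 3.59 and 1.88 FPKM where Poly I:C had come first, a change of -3.03 ± 0.24 (adjusted p = 2.92e-06). LPS alone also lowered Srm at 6 h (-2.87 ± 0.30). Sat1, which acetylates polyamines for export or oxidation, was higher at 2 h (1.35 ± 0.16) and lower at 6 h (-1.37 ± 0.16).

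Of 7 proline and creatine genes, the earlier Poly I:C gave 0 higher and 6 lower before LPS at 2 h (median -1.63, against 32.6% and 28.5% of all entries called), and 0 were higher and 3 lower at 6 h (median -0.35, against 23.7% and 25.9%). Gatm, which uses arginine to make the creatine precursor, stood at 66.4 FPKM in both PBS then LPS libraries and at 8.99 and 13.2 FPKM after Poly I:C then LPS at 6 h (-2.50 ± 0.17). At 2 h its change was -2.44 ± 0.17. Gamt, the next enzyme, gave -2.14 ± 0.18 and -1.78 ± 0.18 at 2 h and 6 h, and Ckb, brain-type creatine kinase, -1.67 ± 0.15 and -2.61 ± 0.15.

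Of 14 regulators and receptors upstream of these genes, 10 were higher and 1 lower in that comparison at 2 h (median 1.06), where 32.6% and 28.5% of all entries were called. At 6 h 8 were higher and 4 lower (median 0.63), against 23.7% and 25.9%. Tlr3, the endosomal receptor for double-stranded RNA such as Poly I:C, had 3.08 and 3.83 FPKM after PBS then LPS, 39.5 and 41.1 FPKM after Poly I:C then PBS, and 54.7 and 48.8 FPKM after Poly I:C then LPS at 2 h. By 6 h it had risen to 88.7 and 111 FPKM after PBS then LPS, above 47.2 and 41.5 FPKM after Poly I:C then LPS. Klf4 was higher by 3.59 ± 0.20 at 2 h and 2.89 ± 0.20 at 6 h with Poly I:C before LPS. Il4ra, the receptor chain for the interleukins that induce Arg1, stood at 467 and 485 FPKM after PBS then LPS at 6 h. After Poly I:C then LPS it stood at 81.6 and 70.0 FPKM (-2.64 ± 0.12, adjusted p = 2.69e-07).

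**Figure D3:**
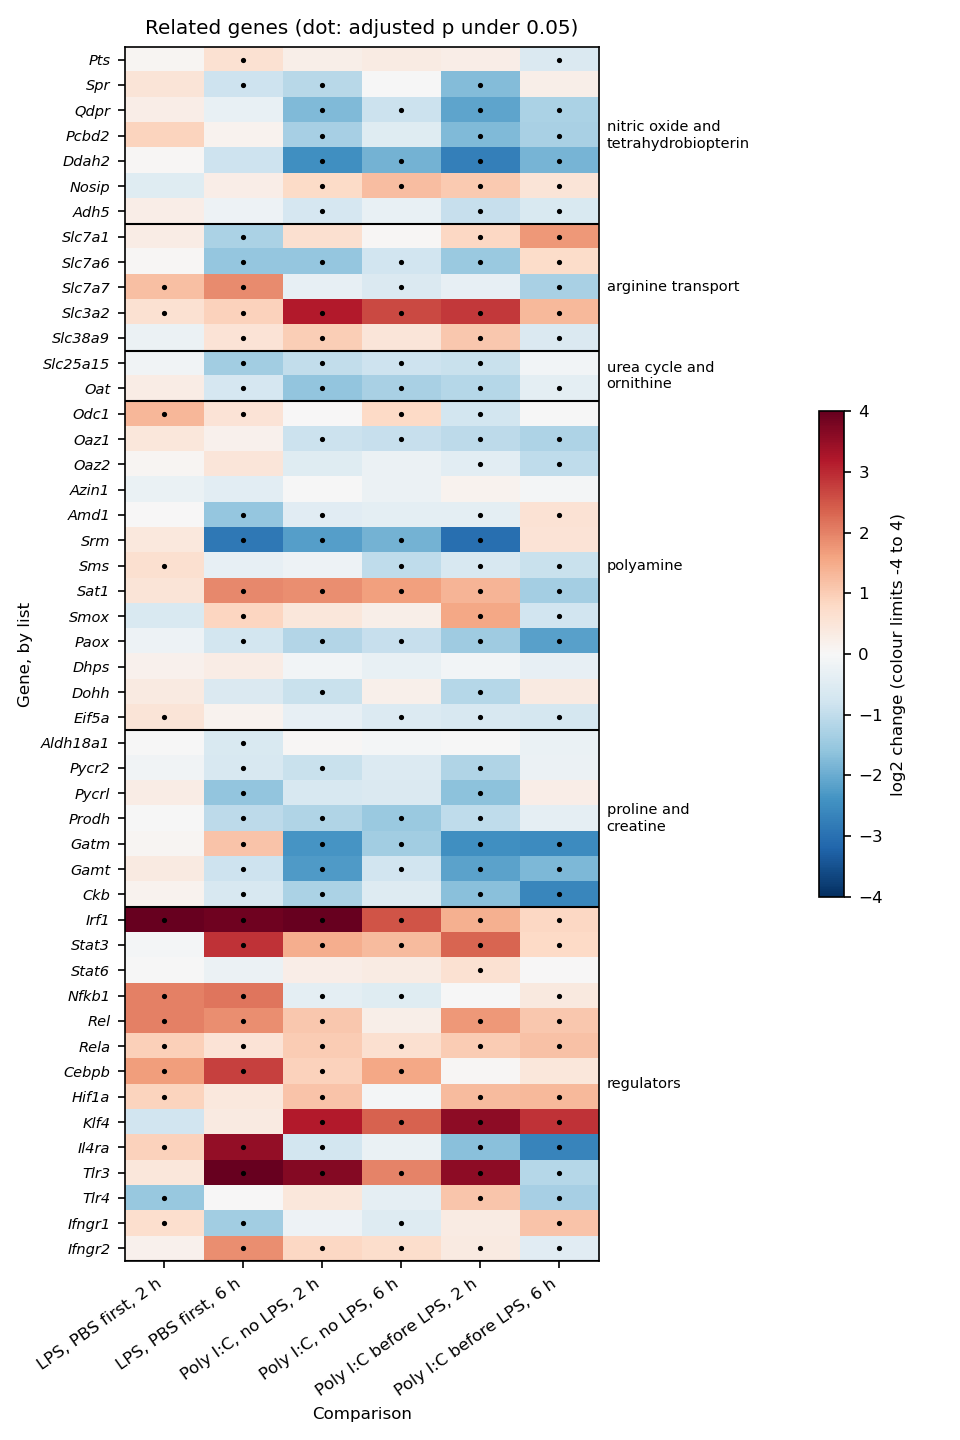
Changes in mean log2(FPKM + 1) of the 48 tested related genes (rows, by list) in 6 comparisons (columns), with colours limited to -4 to 4 and a dot where the adjusted p was under 0.05. Gatm, Gamt and Ckb were lower with Poly I:C before LPS at both times, and Slc3a2 was higher at both.

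Likeness of pattern was measured as Pearson r over the 8 group means of log2(FPKM + 1), among 2755 strongly varying entries. It is a description over points that share libraries, and a high r is given with no p. The entries most like Nos2 were Gm12764 (r = 0.995), Cybb, the catalytic subunit of the phagocyte NADPH oxidase (0.991), Pcgf5 (0.991), Hdc, histidine decarboxylase (0.990), and Timp1, an inhibitor of matrix metalloproteinases (0.989). Hdc had group means at 2 h of 2.15 FPKM in PBS then LPS and 48.2 FPKM in Poly I:C then LPS, and at 6 h of 107 and 103 FPKM. Among the 7 transcripts themselves, Nos2 correlated at 0.950 with Slc7a2, 0.862 with Gch1, 0.779 with Ass1, 0.652 with Arg2, 0.194 with Arg1 and -0.284 with Asl.

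**Figure D4:**
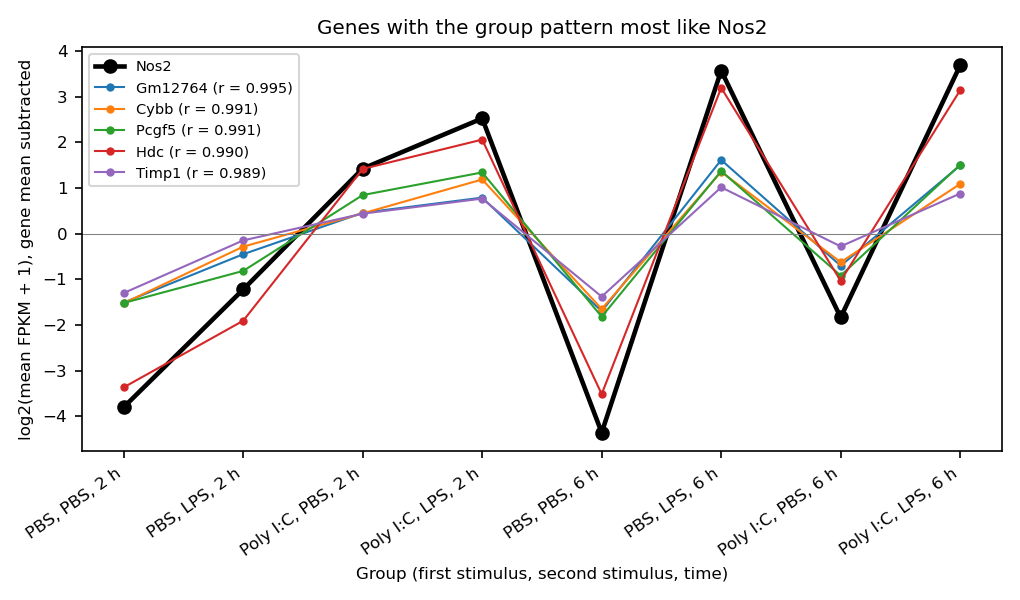
Group means of Nos2 and of the 5 most similar entries as log2(mean FPKM + 1) with each gene's mean subtracted (vertical axis), over the 8 groups (horizontal axis). Each of the 6 lines is highest in an LPS group of 6 h and lowest in PBS then PBS at 6 h, and Nos2 spans the widest range.

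The entries most like Slc7a2 were Procr (0.990), Niacr1 (0.984) and Psmd10 (0.984), and those most like Ass1 were Ms4a6b (0.988), Fcgr1, the high-affinity IgG receptor (0.983), and Fbxw17 (0.980). Gch1 was most like Clic4 (0.980), H3f3b (0.971) and Zc3h7a (0.971). Arg2 was most like the chemokine Cxcl3 (0.982), Gphn (0.978) and Tmem39a (0.973), and Arg1 most like the transcription factor Maf (0.956), the adenosine receptor Adora3 (0.941) and Pik3cd (0.941). Asl, with the narrowest range on the log2(FPKM + 1) scale, had the weakest best matches, Pcca (0.913), Dot1l (0.910) and Lrrfip1 (0.906).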

How the data were processed

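Polyadenylated RNA had been made into stranded libraries and sequenced in paired 76 bp reads. Per the submitters' processing notes, TopHat2, Cufflinks and Cuffnorm were used with build mm9; their versions and options are not given in the sources used here. The authors deposited FPKM values, 1 row per entry and 1 column per library. The named gene was overlapped on GRCm38 (GENCODE M21) by 33738 of 33795 entries, so coordinates are given as GRCm38.

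Values were taken as log2(FPKM + 1) of the deposited FPKM. Entries with a name that reached 1 FPKM in 2 or more libraries were fitted with limma 3.58.1 in R 4.3.3, with 1 mean per group, a trend on intensity, 6 residual and a median of 3.99 prior degrees of freedom. Tests were 2-sided, with Benjamini-Hochberg adjustment over 11977 entries. The procedure was tested on data simulated from the fitted model itself, which cannot tell how well that model suits these FPKM values. Python 3.11.15 was used for the rest.

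The genes, lists and comparisons were chosen with earlier results of these data known. The rule named all 7 genes, up to 3 called list genes in each direction with a group mean of at least 1 FPKM (any may be given in other comparisons), and the 5 (Nos2) or 3 most alike entries, among those with group means spanning at least 2 log2 units and reaching 5 FPKM. Some listed genes are not reported here. Alternatives were a replicate block, leaving out each replicate, fitting each time on its own, joining the PBS then PBS libraries of both times as 1 control, a pseudocount of 0.1, dropping the filter, dropping the trend, and scaling by median of ratios.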

Additional observations from a re-analysis of the deposited data

Results flagged for a closer look

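The LPS response differed between Poly I:C-first and PBS-first cells at 6 h, by the interaction in limma, for 5 of the 7 transcripts. Of all tested entries, 12.7% were called higher and 16.7% lower. The interactions were -2.40 for Nos2, -4.40 for Ass1, -1.04 for Gch1, -1.83 for Arg1 and 2.82 for Arg2, in log2(FPKM + 1). That for Gch1 was not called with the PBS then PBS libraries of both times joined as 1 control.

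The effect of Poly I:C before LPS differed between 6 h and 2 h for the same 5. Among all tested entries that change was called higher for 19.1% and lower for 25.3%. The change was -3.72 for Nos2, -4.74 for Ass1, -1.27 for Gch1, -2.43 for Arg1 and 2.04 for Arg2. Both comparisons use the same LPS libraries of 6 h. Arg1 passed the filter only through PBS-first libraries of 6 h, so neither of its values is an independent result.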

How the results depend on the processing

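The 7 transcripts gave 98 values in 14 comparisons. Replicate numbers gave no sign of pairing across groups. In 15 pairs of groups, libraries of the same number had deviations correlated over genes at -0.19 to 0.078, 0 of them over 0.1. That cannot tell whether libraries shared an origin, which is not stated. The fit with a replicate block changed no call, the 2 h interaction staying at 0 transcripts called. Of the transcript counts, the 2 h interaction moved from 0 to 1 with a pseudocount of 0.1 and with the PBS then PBS libraries of both times joined as 1 control (0 to 1 over left-out replicates). Poly I:C alone at 6 h moved from 5 to 3 with that joined control. Poly I:C then PBS from 2 h to 6 h moved from 5 to 3 with no filter (3 to 5 over left-out replicates). With the libraries of 1 time alone, related genes called moved from 14 to 9 for LPS alone at 2 h (11 to 22 over left-out replicates), from 14 to 9 for LPS after Poly I:C at 2 h (9 to 19), and from 3 to 1 for the 2 h interaction (1 to 9). Calls over all tested entries fell in that setting too. For LPS alone at 2 h they went from 1134 higher and 765 lower to 747 and 429. For LPS after Poly I:C at 2 h, 1681 and 1044 became 1236 and 609. For the 2 h interaction, 302 and 212 became 109 and 86. The PBS then PBS groups have 1 library each and could not be left out.

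Signs turned only for values that were not called. A pseudocount of 0.1 turned the interaction to -0.37 for Slc7a2 at 6 h, and at 2 h to -0.0028 for Gch1 and -0.75 for Arg2. Median-of-ratios scaling turned the 2 h interaction of Asl to 0.011. The joined control turned the 2 h interaction of Ass1 (-0.11), Gch1 (-0.55) and Arg1 (0.28), Poly I:C alone at 2 h for Asl (0.097) and Arg1 (-0.37), and LPS alone at 6 h for Asl (-0.035). Leaving out replicates turned Nos2 for Poly I:C before LPS at 6 h (-0.076 to 0.31), and the 6 h interaction of Slc7a2 (-0.091 to 0.13). At 2 h it turned LPS alone for Ass1 (-0.23 to 0.34), Asl (-0.12 to 0.57) and Arg1 (-0.11 to 0.072), LPS after Poly I:C for Ass1 (-0.038 to 0.35), Poly I:C before LPS for Asl (-0.44 to 0.25), Poly I:C alone for Arg1 (-0.036 to 0.20), and the interaction for Ass1 (-0.19 to 0.39), Asl (-0.36 to 0.34) and Gch1 (-0.19 to 0.24). The cause was not tested. Without counts, how depth limits the weak Arg1 and Arg2 values is unknown.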
